A study of Homo sapiens with 17 samples.

Results

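Complement is a cascade of plasma and cell surface proteins that tags cells for uptake and can puncture their membranes. The classical pathway starts when the proteases C1R and C1S, held in the C1 complex, are switched on. The alternative pathway runs on C3, on factor B (CFB) and on factor D (CFD), which cuts factor B bound to C3b. Cells protect themselves with CD46 and CD55, which act on C3b and the convertases, and with CD59, which blocks the final pore. Factor I (CFI) is the soluble protease that inactivates C3b and C4b. The liver makes most plasma complement, and fibroblasts are one of many local sources. Complement factors are among the proteins that senescent cells can secrete.

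The 9 genes described here are C3, CFB, CFD, CFI, C1R, C1S, CD46, CD55 and CD59, chosen by name from the 62754 gene rows of each count table. The choice was made with earlier results of these data known. RNA with poly(A) tails was sequenced, with the strand kept, from 17 samples of IMR90 ER:RAS cells, each 1 library. These are human lung fibroblasts infected with a retrovirus for RAS G12V fused to an estrogen receptor (ER) domain. 4-hydroxytamoxifen (4OHT) activates the fusion and induces senescence. The siRNA was either non-targeting (siNT) or directed at SMARCA4 (siSMARCA4), an ATPase of the SWI/SNF chromatin remodeling complex. It was given 1 day before 4OHT or its solvent dimethyl sulfoxide (DMSO), and RNA was taken on day 7. The groups were DMSO siNT (growing cells, n = 5), 4OHT siNT (senescent cells, n = 6) and 4OHT siSMARCA4 (senescent cells with the knockdown, n = 6). All groups carried the ER:RAS fusion and were transfected. No library here combined DMSO with siSMARCA4. Effects of RAS activity and of 4OHT itself cannot be told apart, because no library came from cells without the fusion. Labels further gave a number after the siRNA, 2 or 4, and a tag that ends in V or VM for each replicate. In the knockdown group they read siSMARCA4_2 or siSMARCA4_4, so this group pools libraries of 2 numbered SMARCA4 siRNAs. What V and VM stand for is not given, nor what the number beside siNT marks. V tags stand on 2 libraries of DMSO siNT, both of number 2, on none of 4OHT siNT and on 3 of 4OHT siSMARCA4. Within DMSO siNT, number and V or VM therefore cannot be fully told apart. Libraries are named below by these tags, so that 2-1V is number 2, replicate 1V. Nothing in the labels says that libraries came from separate cultures, so p-values measure only the spread between these libraries. Some libraries of a group differ in their tag only by V or VM. These are 2-2V and 2-2VM of DMSO siNT, and 2-3V and 2-3VM, and 4-2V and 4-2VM, of 4OHT siSMARCA4. Whether such libraries repeat the same replicate is not given, and each was counted on its own.

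Library totals ranged from 39.1 to 68.98 M counts (M, 1e6, mean 53.0 M). Gene positions are on GRCh38 (GENCODE 44). Levels are given as counts per 1e6 counts of the library (CPM), with library sizes scaled by TMM factors between 0.949 and 1.08. SMARCA4 was measured first, as a check of the labels, and was 268 ± 13.2 CPM (SD, n = 6) in 4OHT siNT and 88.1 ± 22.8 CPM (n = 6) in 4OHT siSMARCA4. All 11 fibroblast markers passed the filter on low counts. The summed level of these markers was lower in senescent cells and lower again after the knockdown. It ranged from 25789 to 30845 CPM in DMSO siNT, from 17030 to 22819 CPM in 4OHT siNT and from 8923 to 14245 CPM in 4OHT siSMARCA4. In 4OHT siNT against DMSO siNT, 7 of the 11 were called lower and 2 higher (edgeR, adjusted p under 0.05), against 27.4% and 27% of all genes. On the knockdown 8 were called lower and none higher, against 13.8% and 10.4%. Their part in the complement levels was not tested. The 5 epithelial markers summed to 101 to 139, 66.3 to 83.4 and 35.9 to 59.1 CPM in the 3 groups in this order, with CDH1 under 1 CPM throughout. The 5 endothelial markers summed to 3.44 to 10.8, 9.62 to 14.1 and 6.78 to 10.4 CPM, with CDH5 and KDR under 1 CPM throughout. Of 4 endothelial markers tested, 3 were called higher in 4OHT siNT against DMSO siNT and none lower. On the knockdown 1 was called lower and none higher. Of 4 epithelial markers tested, 3 were called lower in the former contrast and 4 on the knockdown, and none higher in either. Among all genes 27% were called higher and 27.4% lower in the former contrast, and 10.4% and 13.8% on the knockdown. The 5 hepatocyte markers together stayed at or below 0.185 CPM in every library. Of 7 blood and macrophage markers, 6 (PTPRC, CD14, LYZ, CSF1R, AIF1 and SPI1) were under 1 CPM in every library.

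In senescent cells C3 rose from almost none to a moderate level, and 4 other factors fell: C1R, C1S, CFB and CFD. CD55 rose slightly. CD46 and CD59 did not pass the test. Of 8 genes with counts enough to be tested, 2 were called higher and 4 lower in 4OHT siNT against DMSO siNT (edgeR quasi-likelihood test, adjusted p under 0.05). Among all 19473 genes tested, 27% were called higher and 27.4% lower. The median log2 fold change was -0.36 over the 8 genes and 0.0038 over all genes. The groups did not overlap for 4 of the 8 genes, against 39.6% of all genes. In bulk RNA, fewer cells with a transcript and less of it per cell cannot be told apart.

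**Figure D1:**
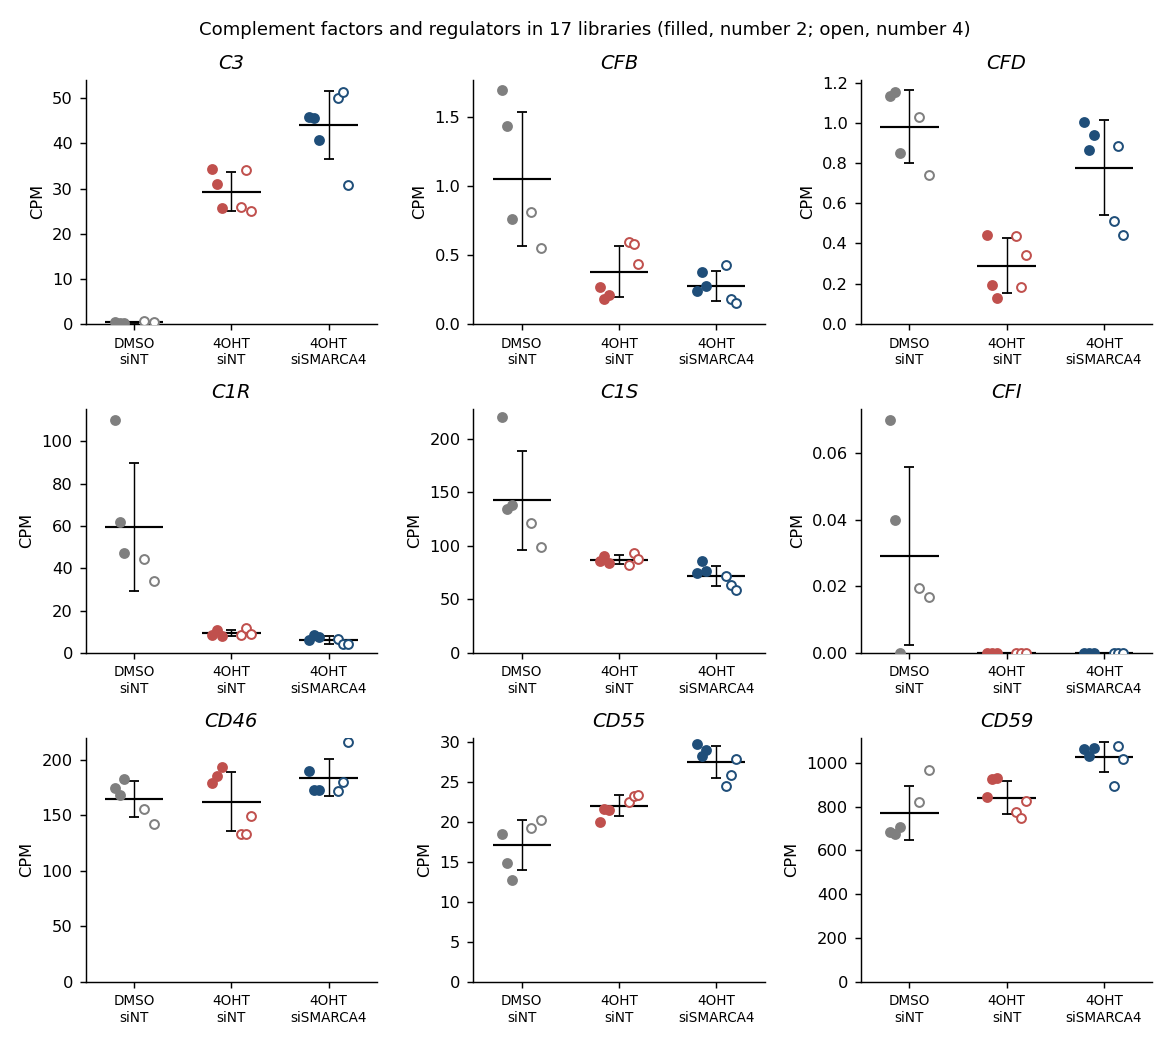
Level of each of the 9 genes in CPM (vertical axis, from 0) in each library of DMSO siNT, 4OHT siNT and 4OHT siSMARCA4. Filled points are libraries with number 2 and open points those with number 4, and lines are means and bars SD. C3 lies at 0.562 CPM or below in DMSO siNT and at 25.0 CPM or above in both 4OHT groups, whereas C1R falls from 59.5 CPM on average to 11.5 CPM or less.

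C3 (ENSG00000125730, chr19:6677704-6730562, minus strand), the protein on which all complement pathways converge, showed the largest change of the 8 tested genes. In DMSO siNT it was 0.436 CPM in 2-1V, 0.119 in 2-2V, 0.226 in 2-2VM, 0.562 in 4-2VM and 0.352 in 4-3VM. In 4OHT siNT the lowest library held 25.0 CPM, the median was 28.5 and the highest was 34.3. In 4OHT siSMARCA4 the lowest held 30.7 CPM, the median was 45.7 and the highest was 51.3. Every 4OHT library therefore lay far above every DMSO library, and the 2 groups of senescent cells overlapped. Mean levels were 0.339 ± 0.173 CPM (SD, n = 5) in DMSO siNT and 29.3 ± 4.36 CPM (n = 6) in 4OHT siNT. The difference was a log2 fold change of 6.42 (SE 0.24, 95% interval 5.91 to 6.93, adjusted p 2.48e-13), or 85.7-fold. The DMSO siNT level rested on 94 counts in all 5 libraries. With the knockdown C3 rose again, to 44.0 ± 7.52 CPM (n = 6), a log2 fold change of 0.59 (SE 0.16, 95% interval 0.25 to 0.92, adjusted p 0.0126). The lowest siSMARCA4 library, 4-3V, lay below 3 of the 6 siNT libraries. The call held whichever library was left out (adjusted p 0.00382 to 0.0329). With number 4 libraries alone the value was 0.63 (adjusted p 0.101). Repeat loci in C3 introns took 10 counts in DMSO siNT, 99 in 4OHT siNT and 217 in 4OHT siSMARCA4, the same order as C3 itself.

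CFB (ENSG00000243649, chr6:31945650-31952086, plus strand), the zymogen that supplies the protease of the alternative pathway convertase, was low in all libraries. In DMSO siNT it was 1.69 CPM in 2-1V, 1.43 in 2-2V, 0.763 in 2-2VM, 0.813 in 4-2VM and 0.554 in 4-3VM. In 4OHT siNT it was 0.269, 0.178 and 0.209 CPM in the number 2 libraries 2-1VM, 2-2VM and 2-3VM, and 0.593, 0.581 and 0.436 CPM in the number 4 libraries 4-1VM, 4-2VM and 4-3VM. In 4OHT siSMARCA4 it ranged from 0.155 to 0.424 CPM, with a median of 0.255. The DMSO and 4OHT siNT libraries overlapped only in that 4-3VM of DMSO siNT lay below 2 number 4 libraries. CFB fell by 1.47 on the log2 scale in 4OHT siNT (SE 0.36, adjusted p 0.00194). The 3 number 4 libraries of 4OHT siNT against the 2 of DMSO siNT alone gave -0.36 (adjusted p 0.52), and number 2 libraries alone gave -2.60 (adjusted p 0.000209). VM libraries alone gave -0.93 (adjusted p 0.0443). After the knockdown the log2 fold change was -0.45 (SE 0.37, 95% interval -1.22 to 0.33, adjusted p 0.414). CFB exons overlap those of C2 and of a readthrough gene, ENSG00000244255, on the same strand. The readthrough gene held 1.09 ± 0.478 CPM in DMSO siNT (SD, n = 5) and 0.429 ± 0.199 in 4OHT siNT (n = 6), so counts could be split between both genes.

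CFD (ENSG00000197766, chr19:859453-867884, plus strand), the serine protease that activates factor B, fell in senescent cells and rose after the knockdown. In DMSO siNT it was 1.13 CPM in 2-1V, 1.15 in 2-2V, 0.850 in 2-2VM, 1.03 in 4-2VM and 0.738 in 4-3VM. In 4OHT siNT the lowest value was 0.131 CPM, the median 0.268 and the highest 0.441. In 4OHT siSMARCA4 the lowest was 0.444 CPM, the median 0.875 and the highest 1.01. The 4OHT siNT libraries lay below all others, but the highest of them came close to the lowest siSMARCA4 library. CFD fell by 1.75 on the log2 scale in 4OHT siNT (SE 0.30, adjusted p 6.23e-05). It rose on the knockdown by 1.41 (SE 0.29, 95% interval 0.80 to 2.02, adjusted p 0.00206), or 2.66-fold. Against DMSO siNT the siSMARCA4 libraries gave -0.34 (SE 0.28, 95% interval -0.93 to 0.25, adjusted p 0.322). A fit of all libraries with a term per group and number compared siSMARCA4 with 4OHT siNT libraries of the same number. The rise was 1.83 (SE 0.40, adjusted p 0.005) in number 2 libraries and 0.94 (SE 0.40, adjusted p 0.119) in number 4 libraries. The difference between these was 0.89 (SE 0.57, adjusted p 0.482). These values rest on 603 counts in 17 libraries. CFD shares exon bases with MED16 on the other strand.

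C1R and C1S encode the paired proteases of C1 and lie next to each other on chromosome 12. C1R (ENSG00000159403, chr12:7080214-7092540, minus strand) was 110 CPM in 2-1V, 62.1 in 2-2V, 47.3 in 2-2VM, 44.2 in 4-2VM and 33.8 in 4-3VM of DMSO siNT. In 4OHT siNT its lowest value was 8.08 CPM, its median 8.66 and its highest 11.5. In 4OHT siSMARCA4 the lowest was 4.02 CPM, the median 6.34 and the highest 8.20. All DMSO libraries lay above all 4OHT libraries, with 2-1V highest. C1R fell by 2.66 on the log2 scale in 4OHT siNT (SE 0.26, 95% interval -3.20 to -2.13, adjusted p 5.47e-08), 6.34-fold. Without 2-1V the value was -2.34 (adjusted p 1.69e-08). It was -3.04 (adjusted p 1.47e-05) in number 2 libraries alone, -2.03 (adjusted p 7.01e-05) in number 4 libraries alone and -2.18 (adjusted p 2.17e-07) in VM libraries alone. After the knockdown the log2 fold change was -0.61 (SE 0.24, 95% interval -1.12 to -0.10), which did not pass (adjusted p 0.0746). It passed in 6 of the 23 alternatives run, among them DESeq2 (adjusted p 0.0437). Exons of C1R overlap those of C1RL, its neighbor on the same strand.

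C1S (ENSG00000182326, chr12:6988259-7071032, plus strand) was 220 CPM in 2-1V, 134 in 2-2V, 138 in 2-2VM, 121 in 4-2VM and 98.7 in 4-3VM of DMSO siNT. In 4OHT siNT the lowest value was 82.1 CPM, the median 86.5 and the highest 93.4. In 4OHT siSMARCA4 the lowest was 58.6 CPM, the median 73.5 and the highest 85.6. The 3 groups followed the same order as for C1R but lay closer together. C1S fell by 0.71 in 4OHT siNT (log2, SE 0.15, adjusted p 0.000445). With number 4 libraries alone the change was -0.34 (adjusted p 0.067). Among VM libraries alone it was -0.48 (adjusted p 0.000782), and without 2-1V it was -0.52 (adjusted p 0.000387). After the knockdown it was -0.28 (SE 0.14, 95% interval -0.57 to 0.017, adjusted p 0.163). It passed in 2 of the 23 alternatives run.

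Per kb of exon, the ratio of C1R to C1S was 0.576 ± 0.106 (SD, n = 5) in DMSO siNT, 0.153 ± 0.0174 (n = 6) in 4OHT siNT and 0.120 ± 0.0203 (n = 6) in 4OHT siSMARCA4. The lowest DMSO library held 0.489 and the highest 4OHT siNT library 0.176. The ratio was chosen after the values of both genes had been seen and is given as a description.

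**Figure D2:**
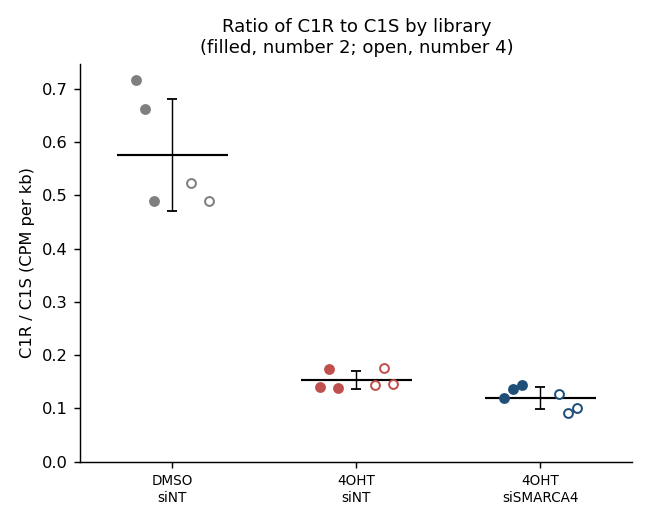
Ratio of C1R to C1S, each in CPM per kb of exon (vertical axis, from 0), in each library of the 3 groups. Filled points are number 2 and open points number 4, and lines are means and bars SD. The 5 DMSO siNT libraries lie at 0.489 or above and the 12 4OHT libraries at 0.176 or below.

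A window each of CFB and C1R is shown with the bases before a RefSeq transcription start. Both windows lie inside the gene as annotated in GENCODE, downstream of its outermost start. Both genes fell in senescent cells, and these windows were picked because they hold matches to motifs of interferon and acute-phase signaling. CFD also fell, and its window holds no match. Sequences come from RefSeq (GRCh38.p14), are given 5′ to 3′ on the strand of the gene and end at the base before the start. Capitals mark matches, on either strand, to TTCNNNGAA (the gamma-activated site, GAS), GAAANNGAA (an interferon-stimulated response element core) or TTGCNNAA (a C/EBP site).
CFB, chr6:31945845-31946094, plus strand: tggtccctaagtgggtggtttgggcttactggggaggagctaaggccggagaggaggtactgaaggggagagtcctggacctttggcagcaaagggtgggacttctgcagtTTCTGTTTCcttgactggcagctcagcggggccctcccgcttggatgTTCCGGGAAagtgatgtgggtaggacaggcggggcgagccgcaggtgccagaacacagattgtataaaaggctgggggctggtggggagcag
C1R, chr12:7091894-7092143, minus strand: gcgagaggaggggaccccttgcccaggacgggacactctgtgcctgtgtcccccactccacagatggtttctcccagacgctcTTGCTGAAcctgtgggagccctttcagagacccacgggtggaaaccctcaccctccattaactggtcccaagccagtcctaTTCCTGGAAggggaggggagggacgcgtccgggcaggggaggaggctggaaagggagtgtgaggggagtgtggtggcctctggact
In CFB the response element match begins 139 bases before the start and the GAS match 92 bases before it. In the C1R window shown, the C/EBP match begins 167 bases and the GAS match 86 bases before the start. Another C1R window, chr12:7092446-7092695, is not shown and holds a C/EBP match and no GAS match. The table held 12 windows for 7 of the 9 genes. C3 and C1S had no entry. GAS matches stood in 4 of the 12 windows, those of C1R, CD59 and CFB, and in 6.57% of all 35116 windows of 250 bases. The CD59 windows with a GAS match overlap and share the same site. C/EBP matches stood in 3 of the 12, of C1R and CD59, and in 9.05% of all windows. The response element core stood in 1 of the 12, of CFB, and in 6.88% of all. TGANTCA, the AP-1 site, stood in a CD59 window and in 6.57% of all windows, and GGANTTTCC, a kappaB site, stood in none of the 12 and in 1.45% of all. A match is a match of letters only.

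CFI (ENSG00000205403, chr4:109731008-109802150, minus strand) was close to absent. It had 8 counts in 4 of 5 DMSO siNT libraries and none in 12 4OHT libraries, where a count of 0 (3 counts over all 12) allows up to 0.0048 CPM. Such limits cover counting error only. In DMSO siNT it was 0.0698 CPM in 2-1V, 0.0398 in 2-2V, 0 in 2-2VM, 0.0194 in 4-2VM and 0.0168 in 4-3VM. CFI did not pass the filter on low counts and was not tested. A gene on the same strand whose exons overlap it, ENSG00000285330, held 6.82 ± 1.59 CPM (SD, n = 5) in DMSO siNT and 5.12 ± 0.63 CPM (n = 6) in 4OHT siNT.

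In senescent cells the membrane regulators had log2 fold changes smaller in size than those of the 5 tested factors. This difference was not tested. The 95% intervals of CD55 (0.15 to 0.58) and C1S (-1.02 to -0.40) overlap in size. CD55 (ENSG00000196352, chr1:207321519-207386804, plus strand), or decay-accelerating factor, was 18.5 CPM in 2-1V, 14.9 in 2-2V, 12.8 in 2-2VM, 19.3 in 4-2VM and 20.2 in 4-3VM of DMSO siNT. In 4OHT siNT its lowest value was 20.0 CPM, its median 22.1 and its highest 23.4. In 4OHT siSMARCA4 the lowest was 24.5 CPM, the median 28.1 and the highest 29.8. Mean levels stepped up from group to group, and the siSMARCA4 libraries lay above all others. The siNT groups overlapped, with 4-3VM of DMSO siNT at 20.2 CPM and 2-1VM of 4OHT siNT at 20.0 CPM. CD55 rose in 4OHT siNT by 0.37 (log2, SE 0.10, adjusted p 0.00501) and on the knockdown by 0.32 (SE 0.10, 95% interval 0.12 to 0.52, adjusted p 0.0214). The second call was lost without library 2-1VM of 4OHT siNT (0.29, adjusted p 0.0666) or 2-1VM of 4OHT siSMARCA4 (0.30, adjusted p 0.0645). It was 0.50 (adjusted p 0.0148) in number 2 libraries alone and 0.17 (adjusted p 0.343) in number 4 libraries alone. The first did not pass among VM libraries alone (0.31, adjusted p 0.068) or number 4 libraries alone (0.21, adjusted p 0.166).

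CD59 (ENSG00000085063, chr11:33703010-33736479, minus strand), or protectin, was the most abundant of the 9 genes. It was 684 CPM in 2-1V, 677 in 2-2V, 706 in 2-2VM, 819 in 4-2VM and 965 in 4-3VM of DMSO siNT. In 4OHT siNT the lowest value was 746 CPM, the median 834 and the highest 932. In 4OHT siSMARCA4 the lowest was 894 CPM, the median 1047 and the highest 1077. The 3 number 2 libraries of DMSO siNT lay below all 4OHT siNT libraries, its 2 number 4 libraries did not, and 5 of 6 siSMARCA4 libraries lay above all others. The log2 fold change in 4OHT siNT was 0.13 (SE 0.09, 95% interval -0.07 to 0.33, adjusted p 0.275). Without 4-3VM of DMSO siNT it was 0.22 (adjusted p 0.03). The sign was not stable across numbers, at 0.35 (adjusted p 0.00136) in number 2 libraries and -0.20 (adjusted p 0.26) in number 4 libraries. On the knockdown CD59 rose by 0.28 (SE 0.09, 95% interval 0.10 to 0.47, adjusted p 0.0286). This call was lost when any of 7 of the 12 libraries was left out: 2-1VM, 4-1VM, 4-2VM or 4-3VM of 4OHT siNT, and 2-1VM, 2-3VM or 4-2VM of 4OHT siSMARCA4. The log2 fold change then stayed between 0.25 and 0.28, with adjusted p up to 0.0779.

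CD59 exons hold 24 repeat loci, and 3 of these, a MLT2B3 and a pair of LTR79 copies, took most of the repeat counts. Per 1000 CD59 counts, repeat loci in its exons took 9.02 ± 2.81 counts (SD, n = 5) in DMSO siNT, 12.6 ± 5.48 (n = 6) in 4OHT siNT and 10.4 ± 1.30 (n = 6) in 4OHT siSMARCA4. Neither difference passed an exact 2-sided permutation test (p = 0.294, adjusted 0.353 over the 6 ratio tests run, for 4OHT siNT against DMSO siNT, and p = 0.597, adjusted 0.597, for the knockdown). Another gene, ENSG00000284969, overlaps CD59 exons on the same strand and held 217 ± 24.9 CPM in DMSO siNT, 261 ± 12.8 in 4OHT siNT and 301 ± 20.1 in 4OHT siSMARCA4. Its log2 fold change was 0.27 (SE 0.08, adjusted p 0.00602) in 4OHT siNT against DMSO siNT. On the knockdown it was 0.21 (SE 0.07, adjusted p 0.0422). Counts could be split between this gene and CD59, so these values are not a separate observation.

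CD46 (ENSG00000117335, chr1:207752037-207795513, plus strand), or membrane cofactor protein, did not pass in any of the 3 contrasts. In DMSO siNT it was 175 CPM in 2-1V, 168 in 2-2V, 183 in 2-2VM, 155 in 4-2VM and 142 in 4-3VM. In 4OHT siNT it was 179, 185 and 194 CPM in the number 2 libraries 2-1VM, 2-2VM and 2-3VM, and 134, 134 and 149 CPM in the number 4 libraries 4-1VM, 4-2VM and 4-3VM. In 4OHT siSMARCA4 it was 190, 173 and 173 CPM in 2-1VM, 2-3V and 2-3VM, and 172, 180 and 216 CPM in 4-2V, 4-2VM and 4-3V. Number 2 and number 4 libraries were apart in DMSO siNT and 4OHT siNT and overlapped in 4OHT siSMARCA4. The log2 fold change was -0.02 (SE 0.10, 95% interval -0.24 to 0.20, adjusted p 0.884) in 4OHT siNT against DMSO siNT and 0.18 (SE 0.10, 95% interval -0.03 to 0.39, adjusted p 0.205) on the knockdown. The sign of the former changed in 5 of 22 alternatives.

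The number in the label, whose meaning for siNT is not given, was examined further because it separated these libraries. Within 4OHT siNT, CD46 was higher in number 2 than in number 4 libraries by 0.42 (log2, SE 0.09, adjusted p 0.0177). It was the only one of the 8 genes called, against 4.68% of all genes. CFB gave -1.28 (SE 0.41, adjusted p 0.082). Within DMSO siNT none of the 8 was called, against 0.108% of all genes, but 6 had an unadjusted p under 0.05, against 19.2%. Among these were C1R (0.91, adjusted p 0.173), C1S (0.58, adjusted p 0.167) and CD59 (-0.37, adjusted p 0.143). Both V libraries of this group are number 2, and for C1R they held 110 and 62.1 CPM, against 47.3 CPM in the VM library of number 2 and 44.2 and 33.8 CPM in those of number 4. Within 4OHT siNT 3 of the 8 had an unadjusted p under 0.05, against 22.3%. Within 4OHT siSMARCA4 none was called, against 0.293% of all genes, and 1 had an unadjusted p under 0.05, against 14.6%. CD46 gave -0.08 there (SE 0.09, adjusted p 0.701). These contrasts were added after the values had been seen. Whether siNT libraries of a number are the controls for the SMARCA4 siRNA of that number is not given. Comparisons within a number therefore cannot separate a knockdown effect from a difference among siNT libraries. In the fit of all libraries with a term per group and number, CD46 within number 4 was higher in siSMARCA4 than in 4OHT siNT. The log2 fold change was 0.45 (SE 0.09, adjusted p 0.00459). A fit of the number 4 libraries alone gave 0.44 and no call (adjusted p 0.0589). In the former fit, within number 2 the log2 fold change was -0.06 (SE 0.09, adjusted p 0.715). The test of the difference itself, -0.50 (SE 0.13, 95% interval -0.78 to -0.23), gave an adjusted p of 0.0712 in edgeR. None of the 8 genes was called for a difference between numbers, against 1.06% of all genes. Unadjusted p in edgeR was under 0.05 for CD46 (0.00121) and CFB (0.0236), and DESeq2 called CD46 (adjusted p 0.0114). Shares of all genes for these readings are not given here.

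With the knockdown, 4 of the 8 tested genes rose (C3, CFD, CD55 and CD59) and none fell. Among all genes 10.4% were called higher and 13.8% lower. The median log2 fold change was 0.23 over the 8 genes and -0.024 over all genes. The groups did not overlap for 2 of the 8 genes, CFD and CD55, against 12% of all genes. Thus C3 and CD55 rose in both steps, while CFD went down and then up. Both contrasts use the 4OHT siNT libraries, so their values are not independent. In a fit of the number 4 libraries alone none of these 4 passed, and C1R, which was lower, did (-0.98, SE 0.21, adjusted p 0.0296). Values there were 0.63 for C3, 0.93 for CFD and 0.17 for CD55, against 0.59, 1.41 and 0.32 with all libraries. In the fit of all libraries with a term per group and number, CFD and CD55 (0.46, SE 0.11, adjusted p 0.00669) passed within number 2. CD59 (0.35, SE 0.09, adjusted p 0.0157), CD46 and C1R (-0.97, SE 0.27, adjusted p 0.0257) passed within number 4. C3 passed within neither, at 0.54 (adjusted p 0.0892) in number 2 and 0.64 (adjusted p 0.0514) in number 4. These readings compare siSMARCA4 with siNT libraries of the same number, and whether those are matched controls is not given. Without 2-1VM of 4OHT siNT or 2-1VM of 4OHT siSMARCA4, 2 of the 4 passed, C3 and CFD. With V or VM as a covariate, or with only the 2 groups compared, C1R (adjusted p 0.0122 and 0.0229) and C1S (adjusted p 0.0468 and 0.0343) were also called, both lower. Shares of all genes called in these other fits are not given here.

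The siSMARCA4 libraries were also compared with DMSO siNT. C3, CD55 and CD59 were higher and C1R, C1S and CFB lower, so 3 genes were called in each direction, against 26.5% called higher and 28.6% lower among all genes. The groups did not overlap for 5 of the 8, against 36.3% of all genes. The median log2 fold change was -0.09 over the 8 genes and -0.012 over all genes. C3 stood at a log2 fold change of 7.01 (SE 0.25, adjusted p 8.16e-14), and C1R at -3.28 (SE 0.26, adjusted p 3.96e-09). C1S was at -0.99 (SE 0.15, adjusted p 1.31e-05) and CFB at -1.91 (SE 0.37, adjusted p 0.000197). CD55 was higher by 0.69 (SE 0.10, adjusted p 1.27e-05) and CD59 by 0.41 (SE 0.10, adjusted p 0.00116). In number 4 libraries alone the CD59 value was 0.14 and was not called (adjusted p 0.467). CD46 was at 0.16 (SE 0.11, adjusted p 0.212).

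**Figure D3:**
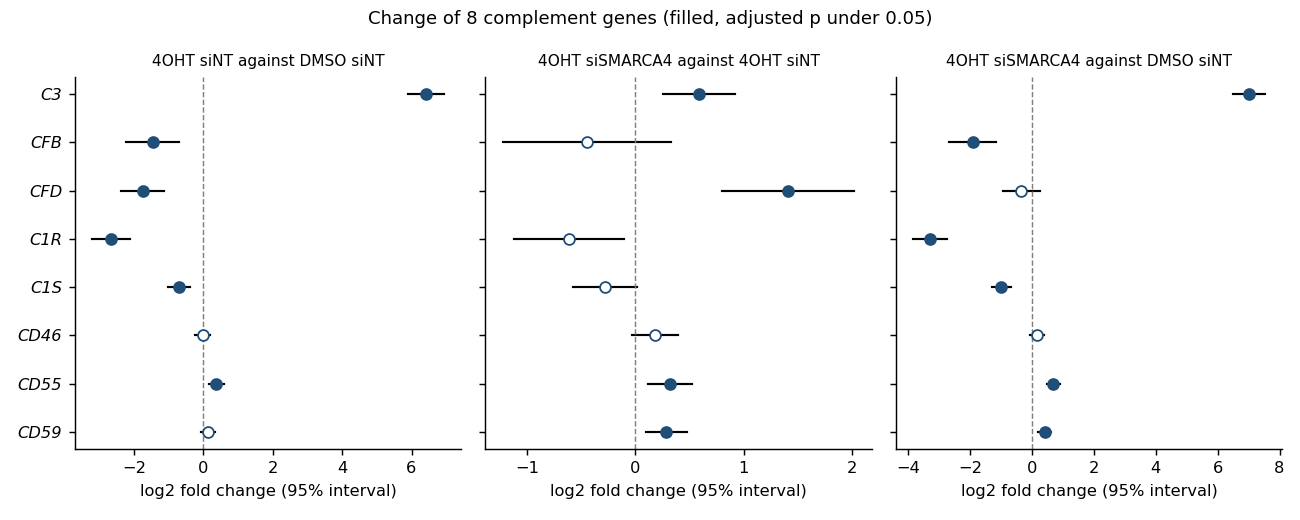
Log2 fold change (horizontal axis) of the 8 tested genes in the 3 contrasts, with 95% intervals from edgeR as bars. Filled points have an adjusted p under 0.05. Between 4OHT siNT and DMSO siNT the values run from 6.42 for C3 to -2.66 for C1R, and on the knockdown from 1.41 for CFD to -0.61 for C1R.

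Per kb of exon, the regulators and the factors could be set side by side. Length here is that of all annotated exons of a gene merged, from 1818 bases for CFD to 15505 for CD46. Lengths of the transcripts expressed were not measured, so ranks between genes depend on the annotation. In DMSO siNT the mean levels were 72.9 CPM per kb for CD59, 17.2 for C1S, 10.6 for CD46, 10.3 for C1R, 1.67 for CD55, 0.539 for CFD, 0.198 for CFB and 0.0293 for C3. In 4OHT siNT they were 79.7 for CD59, 10.5 for C1S, 10.5 for CD46, 2.53 for C3, 2.15 for CD55, 1.61 for C1R, 0.159 for CFD and 0.0712 for CFB. In 4OHT siSMARCA4 they were 97.1 for CD59, 11.9 for CD46, 8.66 for C1S, 3.80 for C3, 2.69 for CD55, 1.06 for C1R, 0.426 for CFD and 0.0516 for CFB. By its mean, C3 was the lowest of the 8 in growing cells and the fourth in both groups of senescent cells. Its libraries overlapped those of CD55 in both, from 2.16 to 2.96 CPM per kb against 1.95 to 2.28 in 4OHT siNT. CD59 was first in all groups. In 4OHT siNT, C1S (SD 0.504) and CD46 (SD 1.73) did not differ beyond their spread, nor did CD46 (SD 1.04) and C1R (SD 5.18) in DMSO siNT.

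**Figure D4:**
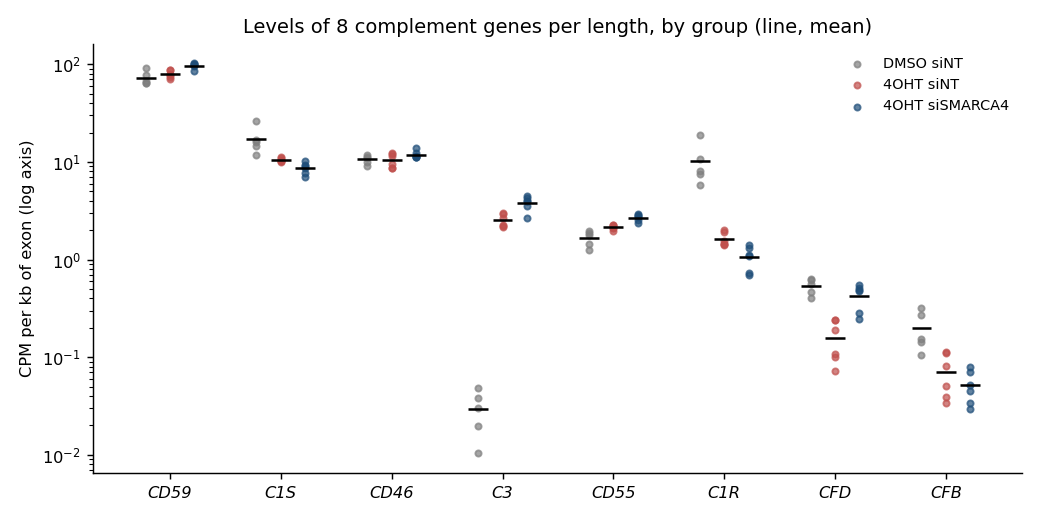
Level per kb of exon (vertical log axis, CPM per kb) of the 8 tested genes, ordered by their mean in 4OHT siNT. Points are libraries colored by group and lines are means. C3 climbs from 0.0293 to 2.53 and 3.80 CPM per kb, and its mean passes those of CD55 and C1R, although C3 and CD55 libraries overlap, while CD59 stays highest in every group.

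The rest of the pathway was read from a list of 47 other complement genes, of which 20 were tested. In 4OHT siNT against DMSO siNT, 4 of the 20 were called higher and 8 lower, against 27% and 27.4% of all genes. On the knockdown 2 were higher and 4 lower, against 10.4% and 13.8%. Their median log2 fold change was -0.43 and -0.29 in these contrasts, and that of all genes 0.0038 and -0.024. In siSMARCA4 against DMSO siNT 5 were higher and 10 lower, against 26.5% and 28.6%. Those with too few counts included C1QA, C1QB, C1QC, MBL2, FCN1, FCN2, FCN3, COLEC11, C6, C8A, C8B, C9, C4BPA, C4BPB, VTN, CPN1, CPN2, CR1, CR2, ITGAM, ITGB2 and VSIG4.

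Among recognition molecules and classical or lectin pathway proteases, 4 of 7 tested genes fell in senescent cells and 1 rose, where 27.4% of all genes fell and 27% rose. MASP1, a lectin pathway protease, went from 12.6 ± 7.66 CPM (SD, n = 5) in DMSO siNT to 1.87 ± 0.438 CPM (n = 6) in 4OHT siNT, a log2 fold change of -2.75 (SE 0.33, adjusted p 8.8e-07). On the knockdown it fell by 1.62 (SE 0.34, adjusted p 0.00234), to 0.606 ± 0.234 CPM (n = 6). C1RL, a C1R-like protease, fell by 1.38 in senescent cells (SE 0.22, adjusted p 2.87e-05). Its exons overlap those of C1R on the same strand. Counts could be split between both genes, so this fall may not be a separate observation. C4A and C4B encode the near-identical C4 isotypes, whose reads the counting could split. Their log2 fold changes were -1.26 (SE 0.30, adjusted p 0.00171) and -1.45 (SE 0.55, adjusted p 0.0343), at 1.14 and 0.391 CPM in DMSO siNT. COLEC10, a collectin that recognizes sugars, rose from 26.9 ± 11.6 to 71.5 ± 21.3 CPM (log2 fold change 1.41, SE 0.27, adjusted p 0.000197). On the knockdown it dropped by 1.63 (SE 0.26, adjusted p 0.000227), to 23.1 ± 5.99 CPM. C3 and COLEC10 thus rose together in senescent cells and went opposite ways after the knockdown.

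In the alternative pathway and terminal group, C5 and C7 fell among 4 tested genes in 4OHT siNT, where 27.4% of all genes fell. C5, the source of the C5a anaphylatoxin, fell by 2.21 (SE 0.27, adjusted p 9.92e-07), from 2.33 ± 0.835 to 0.502 ± 0.184 CPM. C7, a part of the membrane attack complex, fell by 2.88 (SE 0.43, adjusted p 1.29e-05), from a level of 0.386 ± 0.128 CPM. None of the 4 was called on the knockdown, where 10.4% of all genes were called higher and 13.8% lower. Among soluble regulators, SERPING1, the C1 inhibitor that shuts off C1R and C1S, fell by 0.71 (SE 0.25, adjusted p 0.0206) and on the knockdown its log2 fold change was -1.76 (SE 0.25, adjusted p 0.000118). Its level went from 3.96 ± 0.549 to 2.42 ± 0.975 and 0.712 ± 0.206 CPM. CLU, clusterin, which binds terminal complement proteins, fell by 1.46 (SE 0.18, adjusted p 1.01e-06) and rose on the knockdown by 0.67 (SE 0.17, adjusted p 0.00787). Its level was 685 ± 227, 248 ± 40.8 and 394 ± 56.0 CPM in DMSO siNT, 4OHT siNT and 4OHT siSMARCA4.

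Of 6 membrane regulators and receptors tested, 3 rose in senescent cells and none fell, where 27% of all genes rose and 27.4% fell. C3AR1, the C3a receptor, rose by 1.33 (SE 0.29, adjusted p 0.000584), from 0.285 ± 0.0928 to 0.719 ± 0.220 CPM. C5AR2, the second C5a receptor, rose by 2.21 (SE 0.52, adjusted p 0.00143), from 0.0696 ± 0.0685 to 0.340 ± 0.105 CPM. ITGAX, the alpha chain of complement receptor 4, rose by 5.04 (SE 0.62, adjusted p 1.42e-06), from 0.0773 ± 0.0467 to 2.59 ± 0.712 CPM. On the knockdown 1 of the 6 was called higher and none lower, against 10.4% and 13.8% of all genes. ITGAX was not called there, at -1.13 (SE 0.44, adjusted p 0.0677). Its partner ITGB2 had too few counts. The summed blood and macrophage markers ranged from 20.5 to 27.5 CPM in DMSO siNT and from 22.9 to 30.6 CPM in 4OHT siNT. CD68 was the only 1 of the 7 above 1 CPM in any library. Their part in these receptor levels was not tested.

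**Figure D5:**
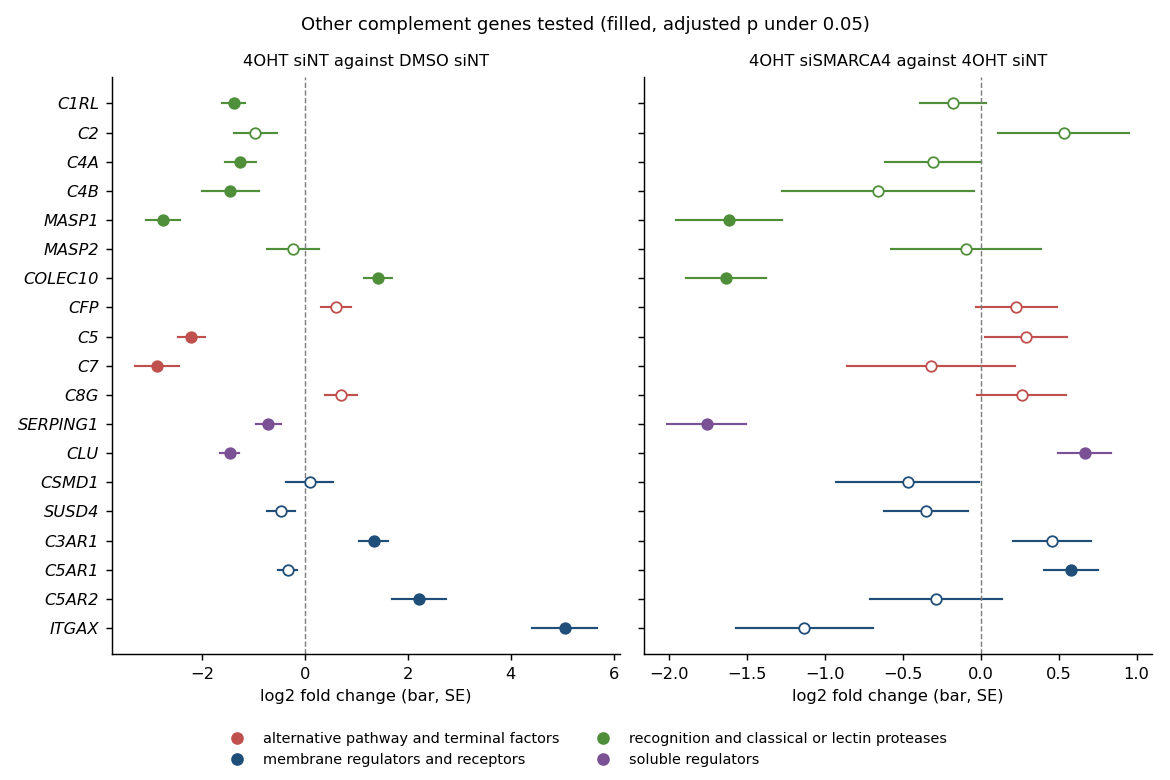
Log2 fold change (horizontal axis, bars, SE) of other complement genes tested, in 4OHT siNT against DMSO siNT (left) and in 4OHT siSMARCA4 against 4OHT siNT (right), colored by role. Filled points have an adjusted p under 0.05. ITGAX at 5.04 and C7 at -2.88 mark the range on the left, and C5AR1 and CLU lie to the right of 0 among filled points on the right.

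The genes whose pattern was most like that of each complement gene were found by Pearson's r of log2 CPM over all 17 libraries. The libraries share the 3-group design, and r is given as a description. For C3 they were CBLN2 (r = 0.994), BMP2 (0.993) and IL1A (0.992). For C1R they were GPR161 (0.978), ANXA11 (0.977) and SLFN11 (0.976). C1S had C14orf132 (0.960), C1R itself (0.954) and CEP68 (0.939). CFB had its readthrough partner ENSG00000244255 (0.989), FBXO16 (0.937) and RIPOR2 (0.936), and CFD had ZNF879 (0.901), BCL7A (0.900) and GPRC5A (0.896). CD46 had VAMP7 (0.969), CUL5 (0.936) and RNGTT (0.932), CD55 had SERPINE2 (0.962), PCTP (0.961) and PRPSAP1 (0.959), and CD59 had TVP23B (0.969), TMEM70 (0.966) and COX7A2L (0.966). C1S was the only one of the 8 whose list held another of the 9 genes.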

How the data were processed

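Per the labels and the study's methods, the authors trimmed reads with cutadapt 4.7, aligned them to GRCh38 with HISAT2 2.2.1 and counted them with TElocal in its multi-mapping mode, which shares reads among positions. The authors deposited, for each library, the expected counts that TElocal estimated for genes and repeat loci, written as whole numbers. The methods name Ensembl release 100, whereas the tables hold every one of the 62700 genes of GENCODE 44, which was used for positions, symbols, exon lengths and overlaps.

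From these, repeat loci were summed to 1261 subfamilies and joined to genes. Rows passed filterByExpr (minimum count 10, minimum total 15), library sizes were scaled by TMM, and 1 term per group was fitted over 17 libraries with edgeR 4.0.16 (R 4.3.3; glmQLFit, glmQLFTest), Benjamini-Hochberg adjusted over 19473 genes. Differences between numbers 2 and 4 came from a 6-term fit. DESeq2 1.42.0 was an alternative. Permutation tests used scipy 1.17.1. Named were all 9 genes, other complement genes called with a log2 fold change of 1 or more in size in any contrast, and 3 genes of most similar pattern for each (log2 CPM, prior count 2). The 9 genes and the lists were chosen with earlier results of these data known. Results for some listed complement genes are not reported here, although counts over the list include them.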

Additional observations from a re-analysis of the deposited data

Results flagged for a closer look

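In 27 groups of values examined (8 complement genes and SMARCA4 in 3 groups each), 1 library stood apart by Dixon's criterion. Chance gives about 1 in 20 groups, so 1 among 27 is not beyond chance. CD59 in library 4-2V of 4OHT siSMARCA4 was 894 CPM, below the other five, which lay between 1017 and 1077 CPM. The same library held the highest SMARCA4 level of its group, 127 CPM. In edgeR, none of the 8 complement genes was called for a difference in knockdown effect between numbers 2 and 4, against 1.06% of all genes. CD46 and CFB had an unadjusted p under 0.05, and DESeq2 called CD46. Shares of all genes for these readings are not given here.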

How the results depend on the processing

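Over 536 refits of single genes, 498 kept direction and side of the threshold, 18 lost a call, 10 gained one and 10 changed sign. The sign changes were CD46 in 4OHT siNT against DMSO siNT with V or VM as a covariate (0.0081), in number 2 libraries only (0.046), and without 4-1VM (0.029), 4-2VM (0.029) or 4-3VM (0.0021) of 4OHT siNT. Leaving out libraries in turn, it ran from -0.099 to 0.029. They were also CD59 in that contrast among VM libraries (-0.010) and number 4 libraries (-0.20), CFB (0.47) and CD46 (-0.016) on the knockdown in number 2 libraries, and CFD in siSMARCA4 against DMSO siNT among VM libraries (0.10). With number 4 libraries only, calls were 3 in 4OHT siNT against DMSO siNT, 1 on the knockdown and 5 in siSMARCA4 against DMSO siNT, and 3 other complement genes were called on the knockdown. With V or VM as a covariate, or only the 2 groups compared, the knockdown had 6 calls. Leaving out 1 library at a time gave 6 to 7, 2 to 4 and 6 to 6 calls in the 3 contrasts. Shares of all genes called in these refits are not given here. Changes in the counts are therefore not a result about the complement genes. Differences between numbers 2 and 4 went from 0 calls to 1 with no filter on low counts (C1R) and to 1 with DESeq2 (CD46). The causes were not tested. With no filter, CFI, with 8 counts, was also called lower in 4OHT siNT (adjusted p 0.0254).

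The deviations of libraries with the same replicate number correlated between -0.45 and 0.53, and those with the same full tag between -0.45 and 0.30, so the numbers were not taken to pair the samples. With the replicate block the calls were 6, 4 and 6 among the complement genes, as without it, and SMARCA4 was at -1.64. Under DESeq2 size factors these 3 counts were also 6, 4 and 6. Low counts limit CFB, CFD and CFI most.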
